A study of Mus musculus with 4 samples.

Results

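The 9 genes followed here belong to the alveolar transition program and were measured across cell groups of the injured mouse lung: the keratins Krt7, Krt8, Krt18 and Krt19, the claudins Cldn4 and Cldn18, the 14-3-3 protein Sfn, and the epidermal growth factor receptor (EGFR) ligands Areg and Hbegf. They are 9 of the 32286 genes in the count tables and were taken as a named list, not picked on a threshold. UMIs (unique molecular identifiers, each counting 1 captured RNA molecule) were summed per mouse over all cells of a group and given as counts per 1000000 UMIs of that group (CPM).

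The lungs came from 2 WT and 2 Tubb3-/- mice aged 8 to 11 weeks, 14 days after intratracheal bleomycin at 0.8 U/kg. Tubb3-/- mice were homozygous for a Cre sequence knocked into the start codon of Tubb3, the gene of β-III tubulin, and WT mice were their littermates. From each mouse, 1 library held live cells depleted of TER-119 (the whole-cell library). The other was made after cells bearing CD31, CD45, EpCAM or TER-119 had been depleted, which enriches mural and other mesenchymal cells. In the latter, MCAM-positive PDGFRα-negative (mural) and MCAM-negative cells were sorted and mixed 1:1. Cells were tagged by mouse, and all 4 mice of both genotypes were pooled for each of these 2 sample types. A library here is the part of a pool that its tag assigns to 1 mouse, so the genotypes share each pool and its free RNA. All 4 mice were injured, so no level below could be set against that of an uninjured lung. Each mouse is 1 replicate of its genotype.

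Keratins assemble as pairs of a type II protein (Krt7, Krt8) and a type I protein (Krt18, Krt19) into the intermediate filaments of simple epithelia. Claudins set the permeability of tight junctions, and Cldn18 is the claudin of the mature alveolar epithelium, whereas Cldn4 is known as a claudin that rises after lung injury. After bleomycin, surfactant-secreting type II cells (AT2) are known to pass through a keratin-rich, Cldn4- and Sfn-expressing intermediate on the way to the thin, gas-exchanging type I cells (AT1). Areg and Hbegf are membrane-anchored growth factors that are shed to activate EGFR.

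The upstream bases of 3 members are shown because Cldn4 and Cldn18, both higher in AT1 than in AT2 cells, differed in opposite directions between the parts of the AT1 group and between rest and AT2 cells, and Areg had a pattern of its own. Each run is the 250 bases before the RefSeq transcript start in GRCm38.p6, written 5′ to 3′ on the strand of the gene, with matches to the searched motifs in capitals.
Cldn4 (chr5:134946935-134947184, minus strand): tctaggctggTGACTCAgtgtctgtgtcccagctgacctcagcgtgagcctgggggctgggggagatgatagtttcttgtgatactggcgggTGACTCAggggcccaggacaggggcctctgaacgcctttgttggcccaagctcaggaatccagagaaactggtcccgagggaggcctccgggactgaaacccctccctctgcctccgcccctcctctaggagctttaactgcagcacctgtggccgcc
Cldn18 (chr9:99717268-99717517, minus strand): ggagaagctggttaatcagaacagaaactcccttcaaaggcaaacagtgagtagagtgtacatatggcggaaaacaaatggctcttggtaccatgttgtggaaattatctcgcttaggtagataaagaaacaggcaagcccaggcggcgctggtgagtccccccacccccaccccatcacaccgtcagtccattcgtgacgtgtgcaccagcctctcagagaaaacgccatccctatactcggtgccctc
Areg (chr5:91139349-91139598, plus strand): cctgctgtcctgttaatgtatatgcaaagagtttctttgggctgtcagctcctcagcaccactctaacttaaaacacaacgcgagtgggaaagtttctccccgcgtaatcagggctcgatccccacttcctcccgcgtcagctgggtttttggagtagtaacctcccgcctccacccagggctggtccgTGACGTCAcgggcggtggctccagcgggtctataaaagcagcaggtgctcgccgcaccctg
For each window, 3 motifs were searched on both strands: TGANTCA (the AP-1 element), TGACGTCA (the cyclic AMP response element) and CATTCC (the TEAD element); no 2 of these patterns can match the same bases in full. Cldn4 held 2 AP-1 matches, beginning 240 and 158 bases before the start. An AP-1 match was present in 6.87% of 27025 promoter windows of that length, and 2 or more in 0.326%. Areg held 1 cyclic AMP response element 61 bases before its start, a motif present in 1.62% of windows. None of the 3 motifs was found in the windows of Cldn18, Sfn, Krt7, Krt8 or Krt18, and the TEAD letters, present in 12.6% of windows, were in none of the 7 member windows. These are matches of letters, and binding was not measured.

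In mm10 the genes lie as follows. Krt8 (ENSMUSG00000049382, chr15:101996698-102004482, minus strand) and Krt18 (ENSMUSG00000023043, chr15:102028180-102032027, plus strand) are neighbours in opposite orientation, and Krt7 (ENSMUSG00000023039, chr15:101411043-101430313, plus strand) lies on the same chromosome. Krt19 is ENSMUSG00000020911, chr11:100140810-100148665, minus strand. Cldn4 is ENSMUSG00000047501, chr5:134945119-134946934, minus strand, and Cldn18 is ENSMUSG00000032473, chr9:99689461-99717267, minus strand. Sfn is ENSMUSG00000047281, chr4:133600556-133602168, minus strand, Areg is ENSMUSG00000029378, chr5:91139599-91148432, plus strand, and Hbegf is ENSMUSG00000024486, chr18:36504927-36515805, minus strand. Krt7, Krt8 and Cldn18 each overlap an annotated gene on the other strand (Gm671, Gm36026 and Gm16004).

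Cells were grouped by the UMIs of genes that are no members. An Epcam-positive cell was called AT2 with at least 50 Sftpc UMIs, ciliated with at least 3 Foxj1 UMIs, club with at least 20 Cyp2f2 UMIs, AT1 with at least 5 UMIs of Ager plus Rtkn2, and rest otherwise, in that order; mesothelial cells had at least 5 Msln UMIs. Of 30092 cells, 2398 had an Epcam UMI and 842 of these stayed below the limits for immune, endothelial and collagen transcripts. They comprised 252 AT1, 310 AT2, 95 ciliated, 57 club and 128 rest cells, and there were 677 mesothelial cells. AT1 cells were split for description into Ager-high cells (at least 50 UMIs of Ager plus Rtkn2; 160 cells) and Ager-low cells (5 to 49 UMIs; 92 cells). Of the AT1 cells, 172 came from the EpCAM-depleted library, so both libraries of a mouse were summed.

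Marker genes outside the gates were read in each group. Summed CPM of 9 AT1 markers outside the gate (Hopx, Pdpn, Aqp5 and others) ran from 7107 to 15993 CPM over the mice in AT1 cells and from 1226 to 2930.2 CPM in AT2 cells, and 8 AT2 markers from 29185 to 40923 CPM in AT2 cells and from 699 to 3027 CPM in AT1 cells. The AT1 markers did not set the Ager-low cells apart from AT2 cells: they ran from 9737 to 18272 CPM in Ager-high cells but from 1945 to 4444 CPM in Ager-low cells, which overlapped AT2 cells; in WT replicate 1 and Tubb3-/- replicate 2 the Ager-low sum was the lower. The AT2 markers of Ager-low cells ran from 1646 to 4841 CPM, below those of AT2 cells, so the name of the Ager-low cells stands for their gate. The 6 ciliated markers ran from 6475 to 7612 CPM in ciliated cells, 6 club markers from 384016 to 518645 CPM in club cells, and 6 mesothelial markers from 5396 to 6972 CPM in mesothelial cells. AT2 cells carried Ager as well, with at least 5 Ager plus Rtkn2 UMIs in 94.2% of them. The 5 basal-cell markers summed to at most 405 CPM in any mouse in club cells, 38.5 CPM in mesothelial cells, 31.1 CPM in rest cells and 4.8 CPM in AT1 cells, with Krt5 and Krt14 at 0 UMIs in AT1 cells, which allows up to 0.667 CPM over the group.

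The rest cells were not a single type. Cdh1, the epithelial cadherin, was detected in 52.3% of them against 95.6% of AT1 cells, with median depths of 10092 and 16460 UMIs. Mesenchymal markers summed to 898 to 1996 CPM in rest cells and 425 to 529.5 CPM in AT1 cells, and 8 rest cells had at least 1000 Scgb1a1 UMIs, the club-cell secretoglobin. The 6 club markers ran from 438 to 66110.1 CPM over the mice. Splitting rest cells by a Cdh1 UMI, a split chosen after the values were seen, placed nearly all keratin RNA in the 67 Cdh1-positive cells: Krt8 was 1198 CPM in them and 89.4 CPM in the other 61, while Pdgfrb, a mural and fibroblast receptor, was 6.08 and 185 CPM. Rest values below are therefore given also with a Cdh1 UMI required where this changes a call or whether the genotypes overlap.

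The libraries held 3202 to 5051 cells each, with median depths of 9186 to 16299 UMIs per cell, and no more than 9 cell barcodes recurred in any pair of libraries. The targeted gene was read in mural cells, where Tubb3 was 14.6 and 11.8 CPM in WT and 0.96 and 1.68 CPM in Tubb3-/- mice. It was lower in the 2 mice labelled Tubb3-/- than in the 2 labelled WT. In all Epcam-positive cells together Tubb3 counted 4 UMIs over the 4 mice.

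Krt8, a type II keratin of simple epithelia, had its highest mean level in AT1 cells, with 983 to 3071 CPM in Ager-low and 690.1 to 1519.6 CPM in Ager-high cells, ranges that overlapped. Its level in AT1 cells was 1396 and 738 CPM in WT and 1415 and 1758 CPM in Tubb3-/- mice, and in AT2 cells 688 and 354 CPM in WT and 788 and 607 CPM in Tubb3-/- mice. AT1 cells were above AT2 cells of the same mouse in all 4 mice. The mouse-blocked test gave a higher level in AT1 cells (log2 difference 0.72, SE 0.16, adjusted p = 0.0142). In ciliated cells Krt8 ranged over 765 to 1279 CPM, in club cells over 179 to 729 CPM, in rest cells over 624 to 1302 CPM and in mesothelial cells over 208 to 323 CPM. In order of mean level, the AT1, ciliated, rest, AT2, club and mesothelial ranges each overlapped the next.

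Krt18, the type I partner of Krt8, followed it closely. AT1 cells had 1557 and 850.1 CPM in WT and 1622 and 2257 CPM in Tubb3-/- mice, AT2 cells 676 and 395 CPM in WT and 752 and 567 CPM in Tubb3-/- mice, and rest cells 1204 and 1669 CPM in WT and 866 and 1108 CPM in Tubb3-/- mice. It was higher in AT1 than in AT2 cells (log2 difference 0.95, SE 0.19, adjusted p = 0.00874), and AT1 exceeded AT2 within each mouse. Over 44 values (11 cell groups in 4 mice) the log2 levels of Krt18 and Krt8 had a Pearson correlation of 0.996, the highest of 13333 genes, with groups of one mouse sharing its libraries. The next most like Krt8 were Wwc1 (0.972), Cgn (0.97), Krt7 (0.967) and Prr15l (0.965).

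Krt7, the other type II keratin, separated AT1 from all other groups. AT1 cells had 1354 and 1963 CPM in WT and 1091 and 1466 CPM in Tubb3-/- mice, whereas AT2 cells had 424 and 124 CPM in WT and 389.7 and 467 CPM in Tubb3-/- mice. The lowest AT1 mouse stood above the highest mouse of every other group. The increase over AT2 cells passed the test (log2 difference 1.75, SE 0.38, adjusted p = 0.0125). In mesothelial cells it was 399 and 331 CPM in WT and 355 and 303 CPM in Tubb3-/- mice, a range that overlapped those of AT2 and rest cells.

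Krt19, a type I keratin also found in airway and mesothelial cells, was shared by all epithelial groups. It reached 757 and 809 CPM in WT and 783 and 657 CPM in Tubb3-/- mice in AT1 cells, and ranged over 365 to 822 CPM in club cells, 345 to 609 CPM in mesothelial cells, 365 to 501 CPM in ciliated cells and 204 to 626 CPM in rest cells. AT2 cells were lowest of the epithelial groups, with 335 and 111 CPM in WT and 208 and 253 CPM in Tubb3-/- mice, and differed from AT1 cells (log2 difference 1.42, SE 0.25, adjusted p = 0.00513). Immune cells, defined without Epcam, held 44.9 to 178 CPM, against 3.22 to 3.93 CPM in fibroblasts.

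Cldn4 was highest in Ager-low AT1 cells and at most 2.17 CPM in any mouse in mesothelial, mural, endothelial, fibroblast and immune cells. The Ager-low cells had 291 and 401 CPM in WT and 306 and 540.1 CPM in Tubb3-/- mice, and Ager-high cells 122 and 10.1 CPM in WT and 174 and 145 CPM in Tubb3-/- mice. In each mouse the Ager-low value was the higher, and the ranges did not overlap. Rest cells had 137 and 183 CPM in WT and 219 and 263 CPM in Tubb3-/- mice, and AT2 cells 75.1 and 5.27 CPM in WT and 39.9 and 34.5 CPM in Tubb3-/- mice. Both AT1 cells (log2 difference 2.10, SE 0.34, adjusted p = 0.0031) and rest cells (log2 difference 2.25, SE 0.49, adjusted p = 0.0101) exceeded AT2 cells. In mesothelial cells Cldn4 counted 9 UMIs over 677 cells, or 0.648 CPM.

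Cldn18, the alveolar claudin, ordered the groups differently. Ager-high AT1 cells had 2635 and 2558 CPM in WT and 2210.0 and 2502 CPM in Tubb3-/- mice, and Ager-low cells 1071 and 1042 CPM in WT and 966 and 834 CPM in Tubb3-/- mice. AT2 cells had 1083 and 846 CPM in WT and 996 and 1209 CPM in Tubb3-/- mice, and rest cells 196 and 65.4 CPM in WT and 119 and 171 CPM in Tubb3-/- mice. Ager-high AT1 cells were above AT2 cells in every mouse, the Ager-low and AT2 ranges overlapped, and the rest range lay below both. All AT1 cells together were above AT2 cells (log2 difference 0.57, SE 0.17, adjusted p = 0.0395), a difference that missed the threshold without WT replicate 1 (adjusted p = 0.176), without Tubb3-/- replicate 1 (0.0779) and without Tubb3-/- replicate 2 (0.082), and whose adjusted p ran from 0.00352 to 0.377 over 19 alternatives.

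Sfn, which encodes the 14-3-3 sigma protein, a p53 target and partner of keratin filaments, had its highest mean CPM in Ager-low AT1 and rest cells and was present in all epithelial groups. Ager-low cells had 819.5 and 429.8 CPM in WT and 911 and 1008 CPM in Tubb3-/- mice, and rest cells 436 and 517 CPM in WT and 1490.0 and 644 CPM in Tubb3-/- mice. The corresponding AT2 values were 351 and 102 CPM in WT and 184 and 257 CPM in Tubb3-/- mice. Rest cells of Tubb3-/- replicate 1 were the highest of all. Club cells ranged over 202 to 445 CPM and ciliated cells over 90 to 362 CPM, the club range overlapping that of rest cells. At a common depth of 2000 UMIs per cell, Sfn was detected in 63.7% of Ager-low, 38.1% of rest, 38.9% of ciliated, 36.8% of club and 23.5% of AT2 cells, so rest cells did not stand above the airway groups by share. The median cell held 0.599 Sfn UMIs per 10000 in the rest group, 1.74 in the ciliated group and 1.95 in the club group. Sfn was the gene most like Cldn4 over the 44 values (r = 0.96), followed by St14 (0.934) and Cdcp1 (0.927). Epcam ranked next (0.923), but the groups were defined by its UMIs, so its place is no result.

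Areg, the amphiregulin gene, varied widely among mice in AT1 cells. In that group it was 499 and 98.5 CPM in WT and 776 and 201 CPM in Tubb3-/- mice, whereas AT2 cells had 513 and 354 CPM in WT and 382 and 354 CPM in Tubb3-/- mice and ciliated cells 388 and 524 CPM in WT and 442 and 464 CPM in Tubb3-/- mice. The AT1 values spanned the AT2 and ciliated ranges entirely. Rest cells (45.8 to 177 CPM) and club cells (5.79 to 124 CPM) were lower, and immune cells had 87.5 to 124 CPM. The 5 genes most like Areg were Ctsh (0.906), Anxa4 (0.901), Grb7 (0.897), Pip5k1b (0.895) and Spint1 (0.893). Hbegf was 0.413 on the same scale.

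Hbegf, the heparin-binding ligand, was also present outside the epithelium. AT1 cells had 302 and 299 CPM in WT and 202 and 328 CPM in Tubb3-/- mice, and AT2 cells 206 and 122 CPM in WT and 142 and 118 CPM in Tubb3-/- mice. Mural cells (59.5 to 96.1 CPM) and endothelial cells (37.7 to 78.7 CPM) overlapped ciliated cells (38.5 to 88.5 CPM), and immune cells were lowest at 5.27 to 6.86 CPM. The AT1 level did not pass the test against AT2 cells (log2 difference 0.56, SE 0.19, adjusted p = 0.0661).

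**Figure D1:**
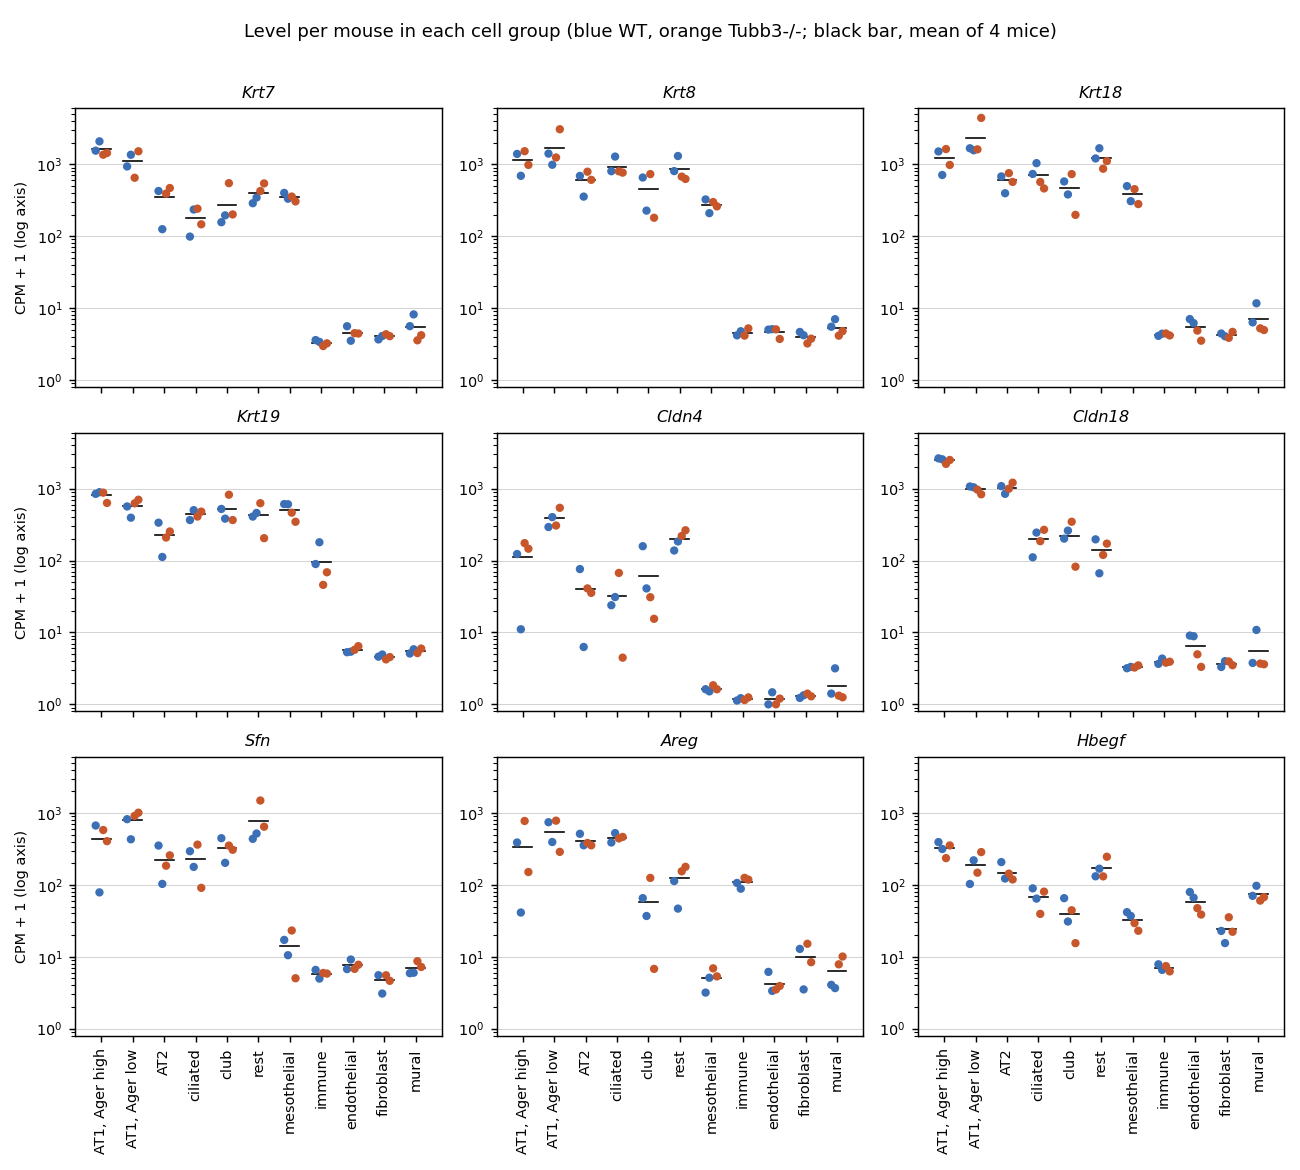
Level of each of the 9 genes in 11 cell groups, as CPM plus 1 on a log axis, with 1 point per mouse (blue WT, orange Tubb3-/-) and a black bar for the mean of 4 mice. The 4 keratins and Hbegf are above 200 CPM in every mouse in Ager-high AT1 cells, while Cldn4 and Cldn18 fall to below 3 CPM in mesothelial cells.

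Shares of cells with a UMI were compared on a common depth of 2000 UMIs per cell. Krt8 was detected in 70.4% of cells (mice 58 to 75%; 96.4% unthinned) in the AT1 group, 53.5% of cells (mice 41.3 to 61.8%; 95.8% unthinned) in the AT2 group, 42.1% of cells (mice 27.6 to 48.4%; 52.3% unthinned) in the rest group and 33% of cells (mice 29.3 to 39.2%; 78% unthinned) in the mesothelial group. In ciliated cells it was detected in 74.7% of cells (mice 57.1 to 82.4%; 100% unthinned), and within AT1 cells in 68.1% of Ager-low and 73.6% of Ager-high cells; both orders go against the CPM, the mice overlapped, and no order is read from them. Cldn4 was detected in 16.4% of cells (mice 9.8 to 20.2%; 41.7% unthinned) in the AT1 group and 3.55% of cells (mice 1.92 to 5.45%; 18.1% unthinned) in the AT2 group. It was seen in 22.2% of cells (mice 13.8 to 32.4%; 38.3% unthinned) in the rest group and in 0.296% of cells (mice 0 to 0.606%; 1.33% unthinned) in the mesothelial group. Each group was thinned by 1 random draw of its own, so each share carries the error of that draw. Separate draws gave Cldn4 in 13.2% of Ager-high and 37.4% of Ager-low cells, which together make more than 16.4%. No order of AT1 and rest cells is read from these shares. In immune cells, which serve as a level of free RNA mainly in the whole-cell library, the thinned shares were 0.817% for Krt8 and 0.019% for Cldn4, with median depths of 8309 UMIs in immune, 16460 in AT1, 24318 in AT2 and 18482 in mesothelial cells. Of the 5301 immune cells, all without an Epcam UMI, 5025 came from the whole-cell library. From the EpCAM-depleted library came 172 of 252 AT1 and 557 of 677 mesothelial cells, and its free RNA is hardly measured by these immune cells. Thinning left out 2 AT1 cells, 2 rest cells, 2 mesothelial cells and 36 immune cells. Within AT1 cells Krt8 ran from 1.7 UMIs per 10000 in the cell at the 10th percentile to 28.3 at the 90th, and Cldn4 from 0 to 6.03. At this depth a cell without a Cldn4 UMI is not shown to lack the transcript.

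Across Epcam-positive cells outside the other gates, the 9 genes divided by their course over the Ager plus Rtkn2 count, the gate that separates rest from AT1 cells. The bins held 74 cells at 0 UMIs, 54 at 1 to 4, 51 at 5 to 19, 41 at 20 to 49, 39 at 50 to 99 and 121 at 100 or more. Cldn18 climbed through every bin, from 88.4 CPM at 0 UMIs over 588 CPM at 5 to 19 and 1349 CPM at 20 to 49 to 2643 CPM at 100 or more, where the mice lay between 2572 and 2775 CPM. Krt7 reached its highest pooled value in the same last bin (296 CPM at 0 UMIs and 1722 CPM at 100 or more).

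When pooled, Cldn4, Krt8, Krt18, Areg and Sfn peaked below that bin. Pooled Cldn4 was 142 CPM at 0 UMIs, 417 CPM at 20 to 49 and 78 CPM at 100 or more. The 4 mice had 224 to 704 CPM at 20 to 49 UMIs and 10.5 to 121 CPM at 100 or more, without overlap. Krt8 went from 1902 CPM at 5 to 19 UMIs to 973 CPM in the last bin, and Krt18 from 2690.2 to 939 CPM. For both keratins the mice overlapped between these bins (528 to 3194 CPM against 694 to 1174 CPM for Krt8), and at 5 to 19 UMIs the highest value was that of Tubb3-/- replicate 2 for both. Areg was 837 CPM at 20 to 49 UMIs and 299 CPM at 100 or more, and Sfn 1283 CPM at 1 to 4 and 317 CPM at 100 or more. Their mice overlapped too, at 330 to 2361 CPM against 40.6 to 795 CPM for Areg. For Sfn they had 369 to 2259 CPM against 75.1 to 530 CPM. The highest Areg value was that of WT replicate 1, with 5 cells in its bin. Krt19 and Hbegf were, as Krt7, highest in the last bin when pooled, at 834 and 361 CPM against 264 and 129 CPM at 0 UMIs. Bins hold as few as 3 cells of a mouse, and these courses are a description without a test.

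**Figure D2:**
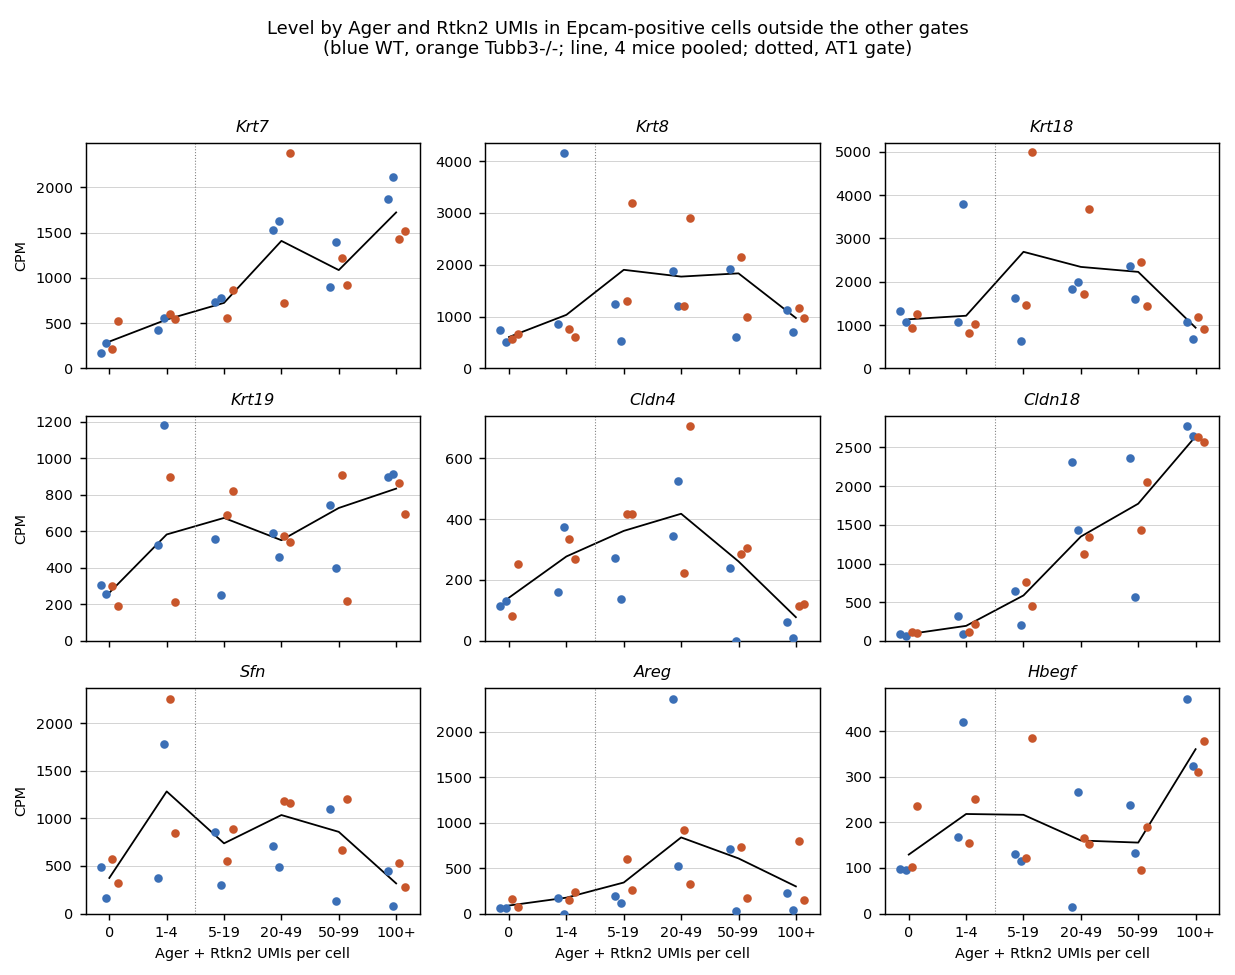
CPM of each gene (linear axis) by the Ager plus Rtkn2 UMIs of the cell, in AT1 and rest cells, with 1 point per mouse (blue WT, orange Tubb3-/-) and a line for the 4 mice pooled; the dotted line is the AT1 gate of 5 UMIs. Cldn18 is highest in the last bin in all 4 mice, while pooled Cldn4 is highest at 20 to 49 UMIs.

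The comparison of AT1 with AT2 cells took all 252 AT1 cells together, the 92 Ager-low cells included. In Ager-high cells alone, the ranges over the mice of Krt7, Krt19 and Cldn18 lay above those of AT2 cells. Those of Krt8, Krt18, Cldn4 and Sfn overlapped AT2 cells (Sfn: 77.6 to 668 CPM against 102 to 351 CPM). Higher in AT1 cells were 7 of 9 members, all 4 keratins, both claudins and Sfn, against 10.4% of all 10626 genes tested; 13% of genes were lower and 23.4% changed in either direction. The median log2 difference of the members was 0.79, beside 0.02 for all genes. Sfn was among those higher (log2 difference 0.79, SE 0.24, adjusted p = 0.044). Areg did not pass (log2 difference -0.78, SE 0.40, adjusted p = 0.204). Without 1 mouse, 4 members passed when WT replicate 1 was left out (Krt7, Krt18, Krt19, Cldn4) and 3 when Tubb3-/- replicate 2 was left out (Krt18, Krt19, Cldn4); without Tubb3-/- replicate 1, Sfn lost its call (adjusted p = 0.148, and 0.000121 to 0.483 over 19 alternatives). With the Ager gate applied before the Sftpc gate, Cldn4 alone passed. That order left 18 AT2 cells (3 and 11 in WT, 1 and 3 in Tubb3-/- mice). It moved most AT2 cells into an AT1 group of 570 cells, so it does not compare the same groups.

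Genes that work with the members differed between AT1 and AT2 cells as well. Of 11 desmosomal and keratin-linker genes, 9 were tested, 5 were higher and 0 lower, among them Dsg2, a desmosomal cadherin (log2 difference 1.68, SE 0.52, adjusted p = 0.0496), and Evpl, the envoplakin linker (log2 difference 1.65, SE 0.31, adjusted p = 0.00628). Of 17 other tight junction genes, 13 were tested, 6 higher and 0 lower, with Cldn23 (log2 difference 2.21, SE 0.36, adjusted p = 0.00324) and occludin, Ocln (log2 difference 1.22, SE 0.26, adjusted p = 0.0118), at the top. Of 10 other keratins, 3 were tested and 1, Krt80, was higher (log2 difference 1.30, SE 0.25, adjusted p = 0.00777). Of 6 other 14-3-3 genes, all were tested and Ywhah alone was higher (log2 difference 0.78, SE 0.15, adjusted p = 0.00728).

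In the EGFR list of 18 other ligands, receptors, sheddases and feedback genes, 15 were tested, 4 were higher and 3 lower in AT1 cells. Nrg1, a ligand of the ERBB3 and ERBB4 receptors (log2 difference 2.26, SE 0.34, adjusted p = 0.00246), and Egfr itself (log2 difference 2.01, SE 0.27, adjusted p = 0.00136) were higher. The feedback inhibitors Errfi1 (log2 difference -1.39, SE 0.15, adjusted p = 0.000448) and Spry2 (log2 difference -1.02, SE 0.14, adjusted p = 0.00142) were lower. Of 28 further genes known from the intermediate alveolar state, 28 were tested, 15 were higher and 1 was lower. Tm4sf1, a tetraspanin-like membrane protein (log2 difference 2.68, SE 0.31, adjusted p = 0.000675), and Cdkn2b, a cell cycle inhibitor (log2 difference 2.64, SE 0.30, adjusted p = 0.000666), were the largest, and the stress factor Atf3 was the gene that was lower (log2 difference -1.11, SE 0.25, adjusted p = 0.0131).

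Rest cells set against AT2 cells showed 2 members higher and 2 lower. Cldn4 and Sfn (log2 difference 1.32, SE 0.39, adjusted p = 0.0389) were higher, beside 11.4% of 10155 genes. Cldn18 (log2 difference -3.41, SE 0.23, adjusted p = 3.75e-05) and Areg (log2 difference -2.20, SE 0.31, adjusted p = 0.00114) were lower, beside 11.7% of genes; 23.1% changed in either direction. The 4 keratins and Hbegf did not pass, with log2 differences between -0.23 for Hbegf and 0.58 for Krt18. With a Cdh1 UMI required, 5 members passed, Krt18 being the added gene. Sfn lost its call when WT replicate 2 (adjusted p = 0.0943), Tubb3-/- replicate 1 (0.117) or Tubb3-/- replicate 2 (0.0667) was left out, its adjusted p running from 6.22e-08 to 0.32 over 19 alternatives. Areg lost its call in the whole-cell library alone (log2 difference -1.70, adjusted p = 0.134) and, with Cldn18, when the Ager gate came before the Sftpc gate, where Areg turned to 0.40. That gate order left 18 AT2 cells, 1 of them in Tubb3-/- replicate 1. The adjusted p of Areg ran from 3.92e-23 to 0.912 over 19 alternatives. Without the limits for other lineages, Cldn4 (-1.09) and Sfn (-2.16) turned negative.

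Of the 28 intermediate-state genes, 15 were higher and 0 lower in rest than in AT2 cells, led by Tm4sf1 (log2 difference 3.35, SE 0.38, adjusted p = 0.000413) and Plaur, the urokinase receptor (log2 difference 2.52, SE 0.29, adjusted p = 0.000431). The desmosomal list had 3 higher, including Dsg2 (log2 difference 2.18, SE 0.42, adjusted p = 0.00585) and desmoplakin, Dsp (log2 difference 1.34, SE 0.23, adjusted p = 0.0029), and 2 lower, Ppl (log2 difference -0.83, SE 0.26, adjusted p = 0.0462) and Pkp2 (log2 difference -0.64, SE 0.20, adjusted p = 0.0499), of 9 tested. In the EGFR list 2 of 13 tested were higher, Egfr (log2 difference 1.77, SE 0.25, adjusted p = 0.00133) and Nrg1 (log2 difference 1.34, SE 0.38, adjusted p = 0.0331), and 5 were lower, with Errfi1 (log2 difference -1.97, SE 0.18, adjusted p = 0.000143) and the phosphatase Dusp6 (log2 difference -1.21, SE 0.20, adjusted p = 0.00259) in front. The tight junction list had 0 higher and 2 lower of 14 tested, Cldn3 (log2 difference -1.30, SE 0.17, adjusted p = 0.000921) and Patj (log2 difference -1.04, SE 0.24, adjusted p = 0.014). Of the other keratins, Krt23 was lower (log2 difference -1.68, SE 0.40, adjusted p = 0.0152) and 3 were tested, and none of the 6 other 14-3-3 genes passed. Within AT2 cells 12 tight junction and 4 other keratin genes were tested, and within rest cells 8 and 1. Genes that entered this fit through AT2 cells alone could only be called lower. Mesenchymal and ciliated markers moved with this contrast, 4 of 6 of each being higher in rest cells (Pdgfrb: log2 difference 3.54, SE 0.51, adjusted p = 0.00134), and their part in these differences was not tested.

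The members called between rest and AT1 cells were all lower in rest cells. Krt7 (log2 difference -1.89, SE 0.22, adjusted p = 0.000695), Krt19 (log2 difference -0.92, SE 0.24, adjusted p = 0.0269), Cldn18 (log2 difference -3.93, SE 0.28, adjusted p = 9.34e-05), Areg (log2 difference -1.48, SE 0.33, adjusted p = 0.0146) and Hbegf (log2 difference -0.77, SE 0.18, adjusted p = 0.0174) were lower, 5 of 9 beside 7.23% of 9436 genes. None of the members was higher, beside 9.29% of genes (16.5% in either direction). Krt8, Krt18, Cldn4 and Sfn missed the threshold, with log2 differences of -0.66 (SE 0.33), -0.36 (SE 0.30), 0.15 (SE 0.26) and 0.56 (SE 0.38). With a Cdh1 UMI required only Krt7 (-1.32) and Cldn18 (-3.36) kept their call, Krt19, Areg and Hbegf having adjusted p = 0.539, 0.124 and 0.339. The same 2 members passed without WT replicate 1 and in the whole-cell library alone. Areg missed the threshold without Tubb3-/- replicate 1 (adjusted p = 0.0617) and Krt19 without Tubb3-/- replicate 2 (0.103), and without WT replicate 2 Krt8 and Krt18 passed as well. Over the alternatives the adjusted p of Krt19 ran from 1.20e-06 to 0.539 over 20 alternatives, that of Areg from 9.89e-11 to 0.548 over 20 alternatives and that of Hbegf from 9.59e-05 to 0.457 over 20 alternatives.

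In that contrast the intermediate-state list split evenly, 5 higher and 5 lower of 28. Ndrg1 (log2 difference 2.06, SE 0.52, adjusted p = 0.0249) and Emp1 (log2 difference 1.29, SE 0.38, adjusted p = 0.045) were higher in rest cells, and Cdkn2b (log2 difference -2.20, SE 0.20, adjusted p = 0.000209) and the integrin Itgb6 (log2 difference -2.07, SE 0.35, adjusted p = 0.0038) lower. Tight junction genes had 0 higher and 5 lower of 14, including cingulin, Cgn (log2 difference -1.57, SE 0.29, adjusted p = 0.00567), and Marveld3 (log2 difference -1.52, SE 0.37, adjusted p = 0.0222), and desmosomal genes 0 higher and 2 lower of 9, Ppl (log2 difference -1.09, SE 0.25, adjusted p = 0.0166) and Pkp2 (log2 difference -1.03, SE 0.25, adjusted p = 0.0202). In the EGFR list the receptor Erbb3 was lower (log2 difference -1.35, SE 0.25, adjusted p = 0.00675), 1 of 13 tested. None of 4 other keratins and none of 6 other 14-3-3 genes passed. Within AT1 cells 13 tight junction and 9 desmosomal genes were tested, and within rest cells 8 and 7. Genes that entered this fit through AT1 cells alone could only be called lower. Mesenchymal markers, 5 of 5 tested, and 3 of 6 ciliated markers were higher in rest than in AT1 cells (Pdgfrb: log2 difference 3.71, SE 0.56, adjusted p = 0.00236). The part of these other cells in the list differences was not tested.

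**Figure D3:**
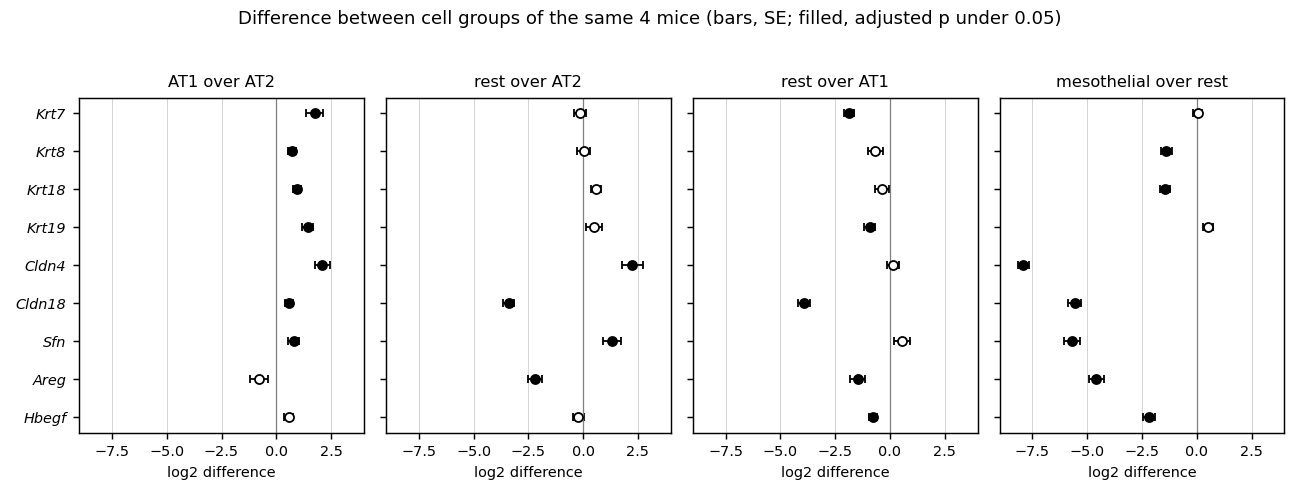
Log2 difference of each gene between cell groups of the same 4 mice, with its SE as a bar; filled points have an adjusted p under 0.05. In AT1 over AT2, 7 members are filled and positive, and 7 are filled and negative in mesothelial over rest. Of the latter, Cldn4 and Cldn18 entered the fit through rest cells.

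Mesothelial cells, the lining of the pleura, held RNA of each member keratin, with Krt8 and Krt18 lower than in rest cells, and little of Cldn4 and Cldn18. Krt7 (log2 difference 0.04, SE 0.21, adjusted p = 0.917) and Krt19 (log2 difference 0.53, SE 0.23, adjusted p = 0.114) did not pass against rest cells. Krt7 was 303 to 399 CPM over the mice in mesothelial cells, below the 463 to 767 CPM of Cdh1-positive rest cells. Krt19 was 345 to 609 CPM, within the 223 to 1032 CPM of those rest cells. The other 7 members were lower, beside 13.7% of 12332 genes lower, 16.1% higher and 29.8% changed in all. Of these 7, Cldn4 and Cldn18 were too low for a test within mesothelial cells and entered this fit through rest cells. A lower level was the only call open to them, so their calls are no separate result. Krt8 (log2 difference -1.38, SE 0.25, adjusted p = 0.00328) and Krt18 (log2 difference -1.45, SE 0.24, adjusted p = 0.00182) were modestly lower. Cldn4 (log2 difference -7.92, SE 0.26, adjusted p = 1.24e-06), Sfn (log2 difference -5.69, SE 0.36, adjusted p = 1.17e-05) and Cldn18 (log2 difference -5.57, SE 0.30, adjusted p = 5.39e-06) were close to 0, Cldn18 with 32 and Sfn with 181 UMIs in 677 cells. Areg (log2 difference -4.59, SE 0.34, adjusted p = 2.43e-05) and Hbegf (log2 difference -2.19, SE 0.27, adjusted p = 0.000344) were lower too. At 2000 UMIs per cell Cldn18 was seen in 0.593% and Cldn4 in 0.296% of mesothelial cells, against 0.472% and 0.0562% of fibroblasts, in which neither is known to be expressed.

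Other junction genes differed in both directions. Of 16 tight junction genes tested, 3 were higher, with Cldn15 (log2 difference 6.41, SE 0.48, adjusted p = 2.63e-05) and Cldn10 (log2 difference 3.24, SE 0.61, adjusted p = 0.00359) in front, and 8 lower, with Ocln (log2 difference -8.78, SE 0.43, adjusted p = 3.85e-06) and Cldn7 (log2 difference -7.88, SE 0.47, adjusted p = 9.09e-06). Among other keratins Krt14 was higher (log2 difference 3.68, SE 0.63, adjusted p = 0.00228) and 3 of 5 tested lower, including Krt80 (log2 difference -2.90, SE 0.40, adjusted p = 0.000653). Krt14 was too low for a test within rest cells, so a higher level was the only call open to it. Within mesothelial cells 11 tight junction and 3 other keratin genes were tested, and within rest cells 8 and 1. Genes that entered this fit through 1 group alone could be called in 1 direction only, and their calls are no separate result. Desmosomal genes had 0 higher and 3 lower of 9, with Dsp (log2 difference -4.44, SE 0.32, adjusted p = 2.22e-05) and Eppk1 (log2 difference -3.25, SE 0.58, adjusted p = 0.00282). The EGFR list had 3 higher, including Erbb4 (log2 difference 2.28, SE 0.53, adjusted p = 0.0102) and Spry2 (log2 difference 0.86, SE 0.24, adjusted p = 0.0248), and 2 lower, Nrg1 (log2 difference -3.17, SE 0.39, adjusted p = 0.000349) and Erbb3 (log2 difference -2.10, SE 0.39, adjusted p = 0.00326), of 15. Intermediate-state genes had 7 higher, led by Tm4sf1 (log2 difference 1.78, SE 0.24, adjusted p = 0.000652) and Ndrg1 (log2 difference 1.57, SE 0.26, adjusted p = 0.00187), and 11 lower, led by Itgb6 (log2 difference -6.45, SE 0.38, adjusted p = 8.18e-06) and Gdf15 (log2 difference -4.56, SE 0.52, adjusted p = 0.000221), of 28.

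The study asks what loss of Tubb3 does in fibrosis, and here the members were compared between genotypes within each cell group. In AT1 cells, Cldn4 was 175 and 74.4 CPM in WT and 223 and 292 CPM in Tubb3-/- mice. Each Tubb3-/- mouse was above each WT mouse, as it was for Krt8 and Krt18. None of the 9 members passed the adjusted test (Cldn4: log2 difference 1.00, SE 0.38, unadjusted p = 0.0328, adjusted p = 0.63; Krt8: log2 difference 0.53, SE 0.34, unadjusted p = 0.159, adjusted p = 0.695; Krt18: log2 difference 0.64, SE 0.34, unadjusted p = 0.102, adjusted p = 0.646), and neither did any of 9389 genes, 0%. Cldn4 was the only member with an unadjusted p under 0.05, which 7.69% of genes had (722 genes), and DESeq2 called 0 members and 13 genes. The genotypes did not overlap for 4 of 9 members (Krt8, Krt18 and Cldn4 higher and Cldn18 lower in Tubb3-/- mice) and for 41.3% of all genes.

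WT replicate 2 stood apart in AT1 cells. It had the lowest AT1 values of the 4 mice for Krt8, Krt18, Cldn4, Sfn and Areg, at 136 CPM for Sfn and 98.5 CPM for Areg, and the highest for Krt7, Cldn18 and Krt19. Its summed AT1 markers were 15993 CPM in these cells, against 7107 to 9171 CPM in the other 3 mice. With WT replicate 1 left out, so that this mouse stood alone, 5 members passed in AT1 cells (Krt8, Krt18, Cldn4, Sfn and Areg, with 522 genes called), and with WT replicate 2 left out none did, with 12 genes called. Tubb3-/- mice also had more Ager-low cells, 40 of 89 and 22 of 61 AT1 cells against 18 of 51 and 12 of 51, and within Ager-high cells Krt8 was 1391 and 690.1 CPM in WT and 1519.6 and 979 CPM in Tubb3-/- mice, overlapping. In the whole-cell library alone the log2 differences of Krt8 and Krt18 were -0.0136 and -0.21. The part of the AT1 makeup in these differences was not tested.

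In AT2 cells none of the members had genotypes that did not overlap, beside 37.7% of 10304 genes. The tests called 0 of 9 members and 0% of genes, at unadjusted p under 0.05 0 members and 7.66% of genes (789), and DESeq2 called 0 members and 3 genes. The member log2 differences ran from -0.41 (Hbegf, SE 0.22) to 0.59 (Krt7, SE 0.41). WT replicate 2 was again the lowest mouse for Krt7, Krt8, Krt18, Krt19, Cldn4, Cldn18 and Sfn. With WT replicate 1 left out, 5 members passed (Krt7, Krt8, Krt19, Cldn4 and Sfn, with 307 genes called), and with WT replicate 2 left out Cldn4 passed, with 70 genes called; the club markers of that mouse summed to 15237 CPM in its AT2 cells, against 1342 to 4159.8 CPM in the others.

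In rest cells 6 of 9 members had genotypes that did not overlap, beside 38.1% of 6477 genes. The Tubb3-/- mice lay above WT for Krt7, Cldn4, Sfn and Areg and below for Krt8 and Krt18. With a Cdh1 UMI required, the genotypes overlapped for Krt7 (463 and 767 CPM in WT against 575 and 648 CPM), Cldn4 (231 and 413 CPM in WT against 319.7 and 309 CPM) and Sfn (743 and 1165 CPM in WT against 2051 and 769 CPM). The log2 difference of Sfn then was 0.54 and that of Krt8 -1.42 (Krt8: 1314 and 2919.8 CPM in WT against 891 and 756 CPM), adjusted p = 0.93 and 0.896. These cells numbered 16 and 9 in WT and 20 and 22 in Tubb3-/- mice, and the highest Krt8 value came from the 9 cells. In all rest cells none passed the adjusted test, nor did any gene (0%). Krt8 (log2 difference -0.76, SE 0.31, unadjusted p = 0.0462, adjusted p = 0.588) and Sfn (log2 difference 1.14, SE 0.46, unadjusted p = 0.0444, adjusted p = 0.58) had an unadjusted p under 0.05, as 8.38% of genes did (543), and DESeq2 called 0 members and 31 genes. Sfn passed when Tubb3-/- replicate 2 was left out, so that the highest mouse stood alone (1.73, adjusted p = 0.00229, and 0.00229 to 0.997 over 21 alternatives). Beside these values, 6 mesenchymal markers summed to 1304 and 1996 CPM in WT and 1073 and 898 CPM in Tubb3-/- rest cells, and their part was not tested.

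Krt8 and Krt18 thus lay higher in Tubb3-/- AT1 cells and lower in Tubb3-/- rest cells. The test of that difference did not pass for any member. Of the 9436 genes in the rest and AT1 interaction 0% passed and 6.64% (627) had an unadjusted p under 0.05, as had 3 members, Krt7 (log2 difference 0.96, SE 0.30, unadjusted p = 0.0118, adjusted p = 0.667), Krt8 (log2 difference -1.31, SE 0.51, unadjusted p = 0.0301, adjusted p = 0.705) and Krt18 (log2 difference -1.28, SE 0.43, unadjusted p = 0.0165, adjusted p = 0.672). For rest and AT2 cells 0% of 10155 genes passed and 7.33% (744) had an unadjusted p under 0.05, with 2 members, Areg (log2 difference 1.42, SE 0.40, unadjusted p = 0.00511, adjusted p = 0.406) and Krt8 (log2 difference -1.08, SE 0.46, unadjusted p = 0.0397, adjusted p = 0.661).

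In mesothelial cells Krt19 and Hbegf lay below WT in the Tubb3-/- mice, and Areg, at 2.18 to 5.9 CPM over the 4 mice, lay above. Krt19 was 609 and 605 CPM in WT and 462 and 345 CPM in Tubb3-/- mice, without overlap. Hbegf was 40.7 and 36 CPM in WT and 28.4 and 22 CPM in Tubb3-/- mice, also without overlap. In the whole-cell library alone the log2 difference of Hbegf turned to 0.35 and that of Krt19 was -0.36. Krt19, Hbegf and Areg were the 3 members of 7 tested whose genotypes did not overlap, beside 39% of 11877 genes. Krt19 (log2 difference -0.58, SE 0.16, unadjusted p = 0.00657, adjusted p = 0.324) and Hbegf (log2 difference -0.59, SE 0.19, unadjusted p = 0.0159, adjusted p = 0.403) had an unadjusted p under 0.05, as 9.34% of genes did, and none of the members passed among the 23 genes (0.194%) that did; DESeq2 called 0 members and 69 genes. Krt19 passed when Tubb3-/- replicate 1 was left out (-0.83, adjusted p = 0.0435, and 0.000271 to 0.996 over 21 alternatives). Cldn4 and Cldn18 were too low to be tested.

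Over all Epcam-positive cells of a mouse, Krt7, Krt8, Krt18 and Cldn4 lay above WT in both Tubb3-/- mice, 4 of 9 members beside 45.5% of 12989 genes. Cldn4 was 101 and 36.3 CPM in WT and 119.6 and 129.5 CPM in Tubb3-/- mice. WT replicate 2 was the low mouse and the other WT mouse was close to the Tubb3-/- mice. No member and 0% of genes passed, no member and 6.93% of genes (900) had an unadjusted p under 0.05, and DESeq2 called 0 members and 27 genes (Cldn4: log2 difference 0.72, SE 0.41, adjusted p = 0.792; log2 difference 0.08 in the whole-cell library alone and 0.18 without WT replicate 2). AT1 cells made up 25% and 23.7% of Epcam-positive cells in WT and 39% and 31.3% in Tubb3-/- mice, without overlap (exact two-sided permutation test over 4 mice, p = 0.3333, the smallest it can give). AT2 cells made up 37.7% and 48.4% in WT and 24.1% and 37.9% in Tubb3-/- mice (same exact test, p = 0.667), and rest cells 15.7% and 13.5% against 14% and 17.9% (p = 0.667 by that exact test). Since 1 library of each mouse was depleted of EpCAM, the shares were also taken in the whole-cell library alone. There AT1 cells made up 16.8% and 11.3% in WT against 27.7% and 24.2% in Tubb3-/- mice, AT2 cells 31.9% and 51.9% in WT against 18.5% and 22.7% in Tubb3-/- mice and rest cells 14.2% and 9.43% in WT against 15.1% and 21.2% in Tubb3-/- mice, none of the 3 overlapping between genotypes (exact permutation test, p = 0.3333 for each, the smallest it can give). The shares of a mouse add up to the whole, so a lower share of AT2 cells raises the others. The 3 shares are therefore not separate observations. The part of this makeup in the pooled levels was not tested.

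In ciliated and club cells the genotypes were not tested. The mice had 14 to 34 ciliated and 11 to 18 club cells. Only Krt8, Krt18 and Cldn4 values are given here, as examples. Ciliated Krt8 was 799.8 and 1279 CPM in WT and 798 and 765 CPM in Tubb3-/- mice and Krt18 733 and 1035 CPM in WT and 567 and 460.2 CPM in Tubb3-/- mice, with Krt8 nearly equal in WT replicate 1 and Tubb3-/- replicate 1. Club Cldn4 was 157 and 39.9 CPM in WT and 29.9 and 14.5 CPM in Tubb3-/- mice, the highest WT mouse standing apart. No gene of the 6 lists of other keratins, desmosomal, tight junction, EGFR, 14-3-3 and intermediate-state genes passed between genotypes in any of the 5 cell groups. Median log2 differences of the 26 to 28 intermediate-state genes tested were 0.18 in AT1, 0.01 in AT2 and 0.07 in rest cells. They were -0.12 in mesothelial and 0.22 in all Epcam-positive cells.

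**Figure D4:**
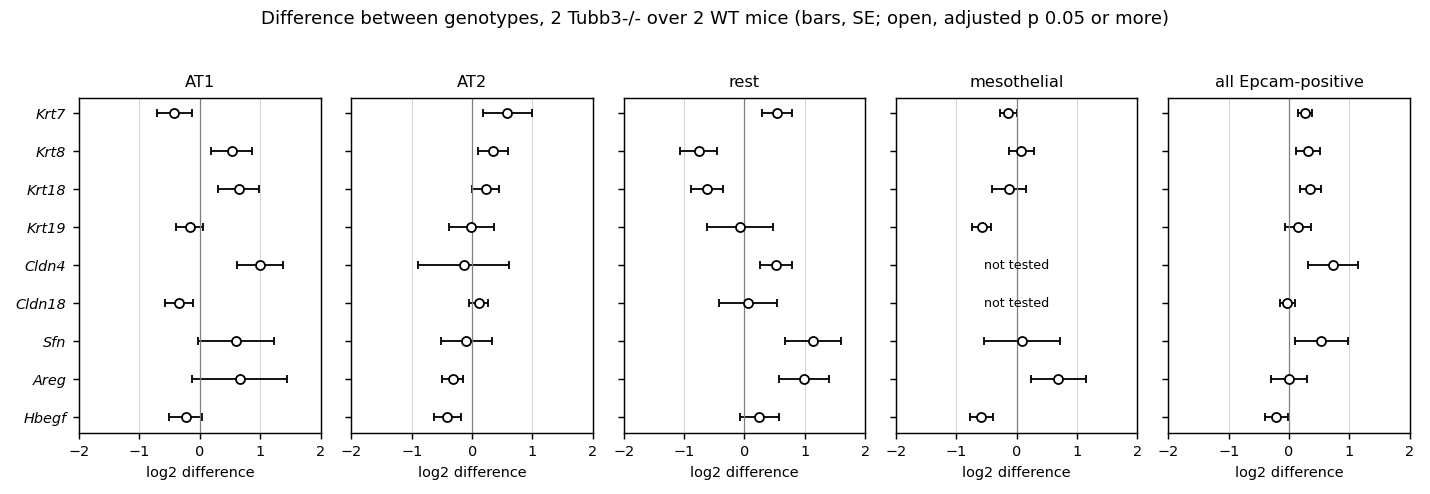
Log2 difference of each gene between 2 Tubb3-/- and 2 WT mice in 5 cell groups, with its SE as a bar; open points did not reach an adjusted p of 0.05. Every point is open, and Krt8 and Krt18 lie right of 0 in AT1 cells and left of 0 in rest cells.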

How the data were processed

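The deposited files were filtered matrices of UMI counts per gene and cell for 8 libraries, with the counts of their sample tags; per the labels and the study's methods the authors made them with 10x 3′ v3.1 chemistry and Cell Ranger 7.1.0 on mm10 with a Cre sequence added. Each library's mouse and genotype came from its dominant tag (88.1 to 94.7% of tag UMIs). Cells with 200 to 7500 genes and at most 15% mitochondrial UMIs were kept, as in the study, and genes in at least 3 cells; 25818 genes entered library totals. Doublets had a Scrublet score above 0.25 (run in Scanpy 1.11.5; 768 of 30860 cells), a limit set by hand because the automatic threshold marked 2 of 14160 whole-cell-pool cells. A library total gives counting error only. Counts from 3′ ends do not scale with transcript length, and levels were not compared between genes.

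The planned gate, 1 UMI of Ager or Rtkn2 taken before Sftpc, left 4 AT2 cells and an AT1 group with 44616 CPM of Scgb1a1, and 9.68% of immune cells also held an Ager or Rtkn2 UMI; the order and minima used here were set after the per-cell distributions were seen. Excluded Epcam-positive cells had over 2 UMIs of Ptprc, Laptm5 and Coro1a, over 2 of Pecam1, Cdh5 and Emcn, or at least 50 of Col1a1, Col1a2 and Col3a1; mesothelial cells had at most 1 Epcam UMI and met the first 2 limits. UMIs were summed per mouse, group and both libraries. Genotypes (2 against 2) and groups of the same mice (mouse as a block) were tested with edgeR 4.0.16 (filterByExpr, TMM, quasi-likelihood; R 4.3.3), with p adjusted by Benjamini and Hochberg across every gene in the fit and a threshold of 0.05; an SE is the log2 difference over the root of its F statistic. DESeq2 1.42.0 and the other settings are alternatives. The fits were tested on simulated data. Named list genes are, per list and direction, the 2 with the widest difference among those called and at 10 CPM or more; likeness is Pearson's correlation of log2(CPM + 1), and 1 gene it ranked is not reported here. The members, lists and tests were chosen with earlier results of these data known. Gene positions are from GENCODE vM21 and promoter windows from RefSeq (7 of 9 members; Krt19 had no entry, and none is printed for Hbegf).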

Additional observations from a re-analysis of the deposited data

How the results depend on the processing

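Of the genotype comparisons, those in AT1, AT2, rest and all Epcam-positive cells called no gene, and the mesothelial one called 23; the cause of the changes below was not tested. DESeq2 called 13 genes in AT1, 3 in AT2, 31 in rest, 69 in mesothelial and 27 in all Epcam-positive cells. Without the filter on low counts, 293, 229, 358 and 402 genes passed in the first 4 groups, with 1 member each in AT1 (Cldn4), rest (Sfn) and mesothelial cells (Krt19). In mesothelial cells DESeq2 size factors gave 15 genes, the whole-cell library alone 1 gene, and an Ager plus Rtkn2 minimum of 1 UMI, also before Sftpc, 13 genes. An AT1 minimum of 50 UMIs called 1 gene in AT1 cells, lifting the limits for other lineages 1 gene and an Epcam minimum of 2 UMIs 1 gene in AT2 cells, and the whole-cell library alone 2 genes in all Epcam-positive cells. Between cell groups, AT1 over AT2 had 1648 genes with DESeq2, and 44 genes and 1 member with Ager before Sftpc. With Ager before Sftpc, 18 AT2 cells remained, and most AT2 cells were in the AT1 group. Rest over AT1 had 678 genes and 2 members in the whole-cell library, 7671 genes and 9 members without limits for other lineages, 499 genes and 3 members with Epcam at 2 UMIs, 3 members with Ager before Sftpc, 979 genes and 3 members with a collagen limit of 20 UMIs, and 778 genes and 2 members with a Cdh1 UMI required. Rest over AT2 had 960 genes in the whole-cell library, 8198 genes and 7 members without limits, 1321 genes with Epcam at 2 UMIs, and 108 genes and 1 member with Ager before Sftpc. Mesothelial over rest had 1572 genes in the whole-cell library and 9425 without limits.

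Log2 differences that changed sign were Krt8 (-0.0136) and Krt18 (-0.21) between genotypes in AT1 cells and Hbegf (0.35) in mesothelial cells, all in the whole-cell library alone. With an AT1 minimum of 50 UMIs, Krt8 (0.29) and Krt18 (0.38) between genotypes in rest cells and Areg in rest over AT1 (0.30) did so. Without limits for other lineages, Sfn (-2.16) and Cldn4 (-1.09) in rest over AT2 and Krt8 (1.93), Krt18 (1.86) and Hbegf (0.59) in mesothelial over rest did so, as did Areg in rest over AT2 with Ager before Sftpc (0.40). Cldn4 in AT1 over AT2 passed in 19 of 19 alternatives, and Krt7 and Cldn18 in rest over AT1 in 20 of 20. Among them, Ager before Sftpc put most AT2 cells into the AT1 group and left 18 AT2 cells. The planned gate of 1 UMI before Sftpc could not be run for comparisons with AT2 cells, 4 of which it left.

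Leaving out 1 mouse at a time, a fit in which the lone mouse is assumed to vary like those of the other genotype gave 0 to 522 genes and 0 to 5 members between genotypes in AT1, 0 to 307 genes and 0 to 5 members in AT2, 15 to 206 genes and 0 to 1 members in rest, 22 to 214 genes and 0 to 1 members in mesothelial, and 0 to 6 genes and 0 members in all Epcam-positive cells. Between cell groups the ranges were 1479 to 2248 genes and 3 to 7 members for AT1 over AT2, 844 to 1244 and 2 to 7 for rest over AT1, 1385 to 1950 and 3 to 4 for rest over AT2, and 2345 to 3698 and 7 to 8 for mesothelial over rest. The share of Epcam-positive cells differed between Tubb3-/- and WT by 6.92 to 14.7 percentage points for AT1, -18.9 to -5.11 for AT2 and -0.55 to 3.36 for rest, the last turning to -0.552 without Tubb3-/- replicate 2; in the whole-cell library alone the differences were 11.9, -21.3 and 6.37, the last 2 outside these ranges.

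The replicate block, which pairs mice by the numbers in their labels, called 49 genes in AT1, 20 in AT2, 21 in rest, 241 in mesothelial and 196 in all Epcam-positive cells, with 1 member, Krt19 in mesothelial cells. With 2 pairs that share only a number, deviations of same-numbered mice had correlations of 0.172, 0.083, 0.0795, 0.296 and 0.421 in those groups. The AT1 minima of 1 and 50 UMIs, the automatic doublet threshold, the collagen limit of 20 UMIs and the Cdh1 requirement were chosen after seeing the data. The rest group rests on 128 cells of 4 mice, with a median of 10092.5 UMIs, and the Ager-low AT1 cells on 92.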
